A study of Mus musculus with 4 samples.

Results

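Ion exchangers, ion pumps and potassium channels were examined in mouse fibroblasts labelled Zip13KO and in fibroblasts of wild-type (WT) mice. The members were all genes whose single symbol on the array marked them as a potassium channel subunit or partner (Kcn), a potassium-dependent sodium/calcium exchanger (Slc24), a sodium/calcium exchanger (Slc8), a sodium/proton exchanger (Slc9), a calcium pump (Atp2a, Atp2b, Atp2c) or a sodium pump subunit (Atp1a, Atp1b). This gave 117 of 22180 genes, of which 89 were Kcn genes and 28 were exchangers or pumps. RNA was measured on 4 Affymetrix Mouse Gene 2.0 ST arrays, 2 biological replicates per group, and the design text names zinc balance and the structure of the Golgi region as the question. Zip13 is the product of Slc39a13, a zinc transporter, and the Zip13KO group carries the study's Zip13-/- genotype, which the WT group lacks. The labels give no age, sex, body site or passage, and do not tie a replicate to its own animal or culture. The p-values therefore measure only how these samples vary, and part of that may be technical.

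The sodium pump exports sodium and imports potassium, and so sets up the gradients that the other transporters use. Exchangers of the Slc8 and Slc24 families export calcium at the cost of sodium entry, those of the Slc24 family also move potassium, and calcium pumps use ATP to move calcium out of the cell or into the endoplasmic reticulum and Golgi. Potassium channels let potassium leave along its gradient, which holds the membrane potential negative and so supports calcium entry in cells that do not fire action potentials, fibroblasts among them.

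Slc39a13 had a log2 intensity of 8.89 and 8.98 on the Zip13KO arrays, against 8.94 and 8.85 on the WT arrays, and the groups overlapped. Whether its probes lie in the altered part of the gene is not known here, so this does not check the labels, and directions below follow the labels as given. Median intensities lay between 94.5 and 96.1 on the 4 arrays. Of 10 fibroblast markers 8 averaged above the median of all rows, while Lum and Fap lay below it on average in each group. This level does not single out fibroblasts. Markers of skeletal muscle (5 of 6), neurons (5 of 6), epithelium (4 of 5) and glia (3 of 4) also averaged above it. In limma 1 fibroblast marker was higher in Zip13KO (Pdgfra, 1.04) and 4 were lower, among them Pdgfrb (-0.92) and Col1a1 (-0.89). The 10 summed to 12652 to 13184 in Zip13KO and 15491 to 16317 in WT. Of 7 smooth muscle or myofibroblast markers, 4 were lower in Zip13KO and none higher in limma (5 lower and 1 higher at an unadjusted p under 0.05), and their summed intensity was 2983 to 2984 in Zip13KO and 10010 to 10563 in WT. Of 6 macrophage or leukocyte markers 1 was higher and 2 were lower, with summed intensities of 588 to 607 in Zip13KO and 600 to 647 in WT. Of 6 neuron markers 1 was lower, with sums of 937 to 982 in Zip13KO and 1028 to 1086 in WT. No marker of skeletal muscle (6), glia (4), endothelium (5), epithelium (5) or adipocytes (5) passed the limma test, with 2 of these 25 higher and 2 lower at an unadjusted p under 0.05. Beside these counts, 17.1% of all genes passed in limma (7.00% higher and 10.1% lower), and 26.1% of those above the median of all rows. At an unadjusted p under 0.05, 25.9% of all genes passed. The part of the fibroblast and smooth muscle markers in the differences below was not tested. In bulk RNA fewer cells of a type and less RNA per cell cannot be told apart.

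Most members did not pass the test between the groups, and the few that did included transporters of calcium and sodium as well as potassium channels. Of the 117 members, 6 rose and 4 fell in Zip13KO (limma, Benjamini-Hochberg adjusted p under 0.05 over all genes). That is 8.55% of the members, against 17.1% of all genes tested, where 7.00% rose and 10.1% fell. The 2 kinds of member differed, with 5.62% of the 89 Kcn genes and 17.9% of the 28 exchangers and pumps past the threshold. The members' median difference, Zip13KO minus WT, was -0.01 log2 units, and that of all genes was -0.0034. For 89.7% of members the difference was smaller than 0.2 log2 units in size, as it was for 79.4% of all genes. The arrays of the groups did not overlap for 58 members (49.6%), against 51.5% of all genes. At an unadjusted p under 0.05, 16 members (13.7%) passed, against 25.9% of all genes. With 2 arrays in each group, the smallest two-sided p of an exact permutation test is 0.333, so calls are those of limma's moderated model.

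Many members were dim, and the share of genes past the threshold differed by level. The median of all rows was 6.57 on the log2 scale, and 63 members (53.8%) averaged above it over the 4 arrays, as did 61.2% of all genes. Among those 63 members, 5 rose and 3 fell, whereas among the other 54 members 1 rose and 1 fell. Over all genes, 26.1% of those above that median were past the threshold (10.6% higher and 15.5% lower) and 2.82% of those at or below it. Of the members above it, 4 of 52 Kcn genes (7.69%) and 4 of 11 exchangers and pumps (36.4%) were past the threshold. Slc24a3 came above the median only through its Zip13KO arrays, and 60 members were above it in both groups. The members nearest to this limit were Kcnd1 (6.58) and Kcnmb2 (6.60) just above it and Kcnq3 (6.57) and Kcnj10 (6.56) just below it.

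**Figure D1:**
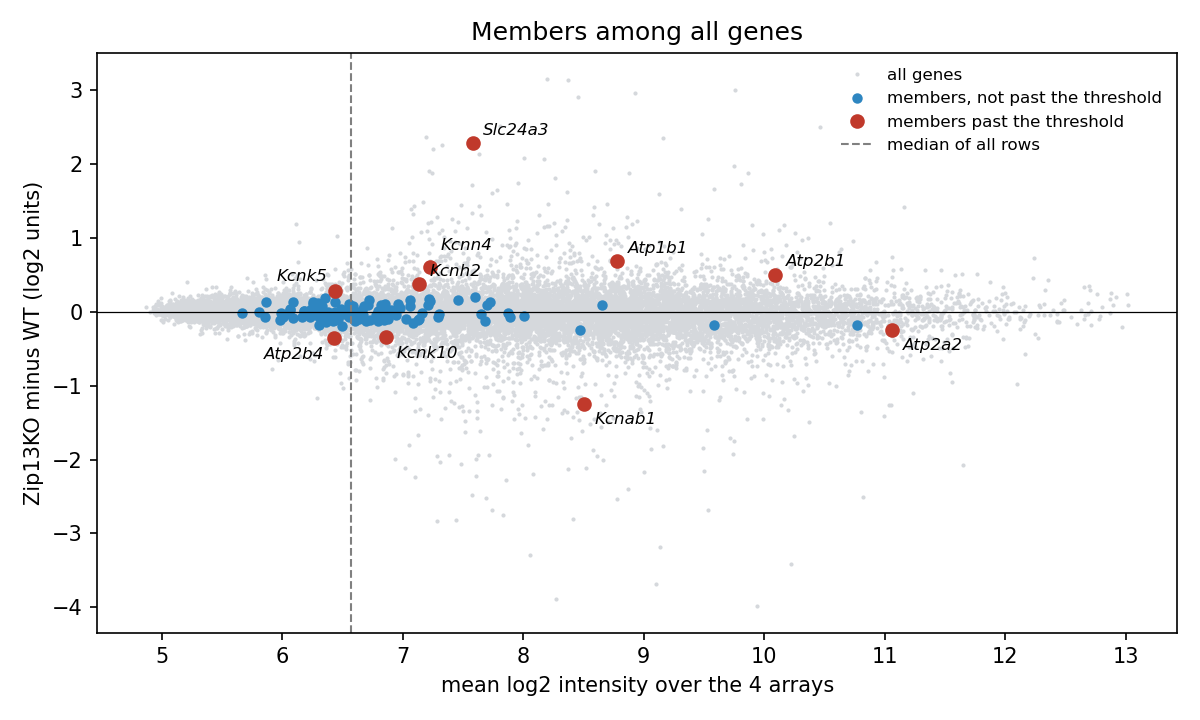
Mean log2 intensity over the 4 arrays (horizontal) and the difference Zip13KO minus WT in log2 units (vertical) for all genes (grey) and for the 117 members (blue, and red where past the threshold); the dashed line is the median of all rows, 6.57. Most members lie near 0, Slc24a3 stands at 2.28 and Kcnab1 at -1.24.

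Slc24a3, which encodes a potassium-dependent sodium/calcium exchanger of the plasma membrane, rose most among the members. Its log2 intensity was 8.67 and 8.77 in Zip13KO, against 6.58 and 6.29 in WT. Both Zip13KO arrays lay far above both WT arrays, and the WT arrays lay around the median of all rows, so that whether WT cells held the transcript at all is not settled by these values. The means were 8.72 ± 0.07 in Zip13KO and 6.44 ± 0.21 in WT (SD, n = 2 each), a difference of 2.28 log2 units (SE 0.09, 95% interval 2.09 to 2.48) or 4.87-fold (limma adjusted p = 5.09e-12). Because array summaries compress differences of dim genes, this fold may be an underestimate. It may also be too large, since the gene was chosen with earlier results of these data known. Neither was tested. With each array left out in turn the difference stayed between 2.14 and 2.43.

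The other Slc24 genes with a row of their own did not pass the test. Slc24a5 had only rows shared with Myef2 (-0.08 and -0.20) and was not tested. Slc24a1, known from photoreceptors of the retina, was at 0.01 (95% interval -0.17 to 0.20). Slc24a2, an exchanger of neurons and cones, was at -0.07 (-0.23 to 0.10), and Slc24a4, known from brain, olfactory neurons and enamel-forming cells, was at -0.13 (-0.29 to 0.04). All 3 averaged below the median of all rows. In gene order Slc24a3 lies on chromosome 2, as does Slc39a13, with 450 protein-coding genes between them. Of its 20 nearest protein-coding neighbours, 18 were measured, 2 rose and none fell in limma (6 higher and 0 lower at an unadjusted p under 0.05). Over all genes 7.00% rose and 10.1% fell in limma, and 25.9% had an unadjusted p under 0.05 in either direction. The neighbours' differences ran from -0.06 to 0.35.

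Sodium/calcium exchangers of the Slc8 family showed no difference past the threshold and all lay below the median of all rows. Slc8a1 was at -0.02 (95% interval -0.19 to 0.16), Slc8a2 at 0.05 (-0.13 to 0.23) and Slc8a3 at 0.00057 (-0.17 to 0.17). The groups overlapped for each of these genes. None of the 3 had an unadjusted p under 0.05 in limma.

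Among calcium pumps of the plasma membrane 1 rose and 1 fell. Atp2b1, the widely expressed pump PMCA1, had log2 intensities of 10.29 and 10.40 in Zip13KO, against 9.87 and 9.81 in WT. Both Zip13KO arrays lay above both WT arrays, and the difference was 0.50 (SE 0.07, 1.42-fold, limma adjusted p = 3.61e-05). Atp2b4, the pump PMCA4, had 6.14 and 6.37 in Zip13KO, against 6.69 and 6.53 in WT, a difference of -0.36 (SE 0.09, adjusted p = 0.00989). Its Zip13KO arrays lay below both WT arrays, but all its values were near the median of all rows, and the call was lost when WT replicate 1 was left out (-0.28, adjusted p = 0.0943), when Zip13KO replicate 1 was left out (-0.25, adjusted p = 0.108) or when every row of the table was fitted (adjusted p = 0.143). Over its alternatives the adjusted p ran from 2.03e-04 to 0.143. Atp2b2, known from hair cells and neurons, was at 0.11 and Atp2b3 at 0.18, and neither passed (adjusted p = 0.477 and 0.209). Atp2b3 passed in 1 of 11 alternatives, without WT replicate 1 (0.30, adjusted p = 0.0479; up to 0.832 in the others).

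Pumps of the internal calcium stores differed little. Atp2a2, the endoplasmic reticulum pump SERCA2, had 10.87 and 11.01 in Zip13KO, against 11.21 and 11.15 in WT. The groups did not overlap, and Atp2a2 fell by 0.24 log2 units (SE 0.07, 95% interval -0.38 to -0.10, limma adjusted p = 0.0166). This call was lost without the intensity trend (adjusted p = 0.0510), over every row (0.135), with WT replicate 1 left out (-0.21, adjusted p = 0.133) and without Zip13KO replicate 1 (-0.17, adjusted p = 0.114), and its adjusted p ran from 4.42e-04 to 0.135 over its alternatives. Atp2c1, the pump SPCA1 that loads the Golgi with calcium and manganese, had 9.41 and 9.57 in Zip13KO, against 9.70 and 9.63 in WT. Both Zip13KO arrays lay below the WT arrays, but the difference of -0.17 (95% interval -0.33 to -0.02) did not pass (adjusted p = 0.143), except without Zip13KO replicate 2 (-0.25, adjusted p = 0.0298; up to 0.624 in the others). Its relative Atp2c2 was at -0.04, and Atp2a1 and Atp2a3, known from fast skeletal muscle and from blood cells, did not pass, at -0.11 and -0.10.

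**Figure D2:**
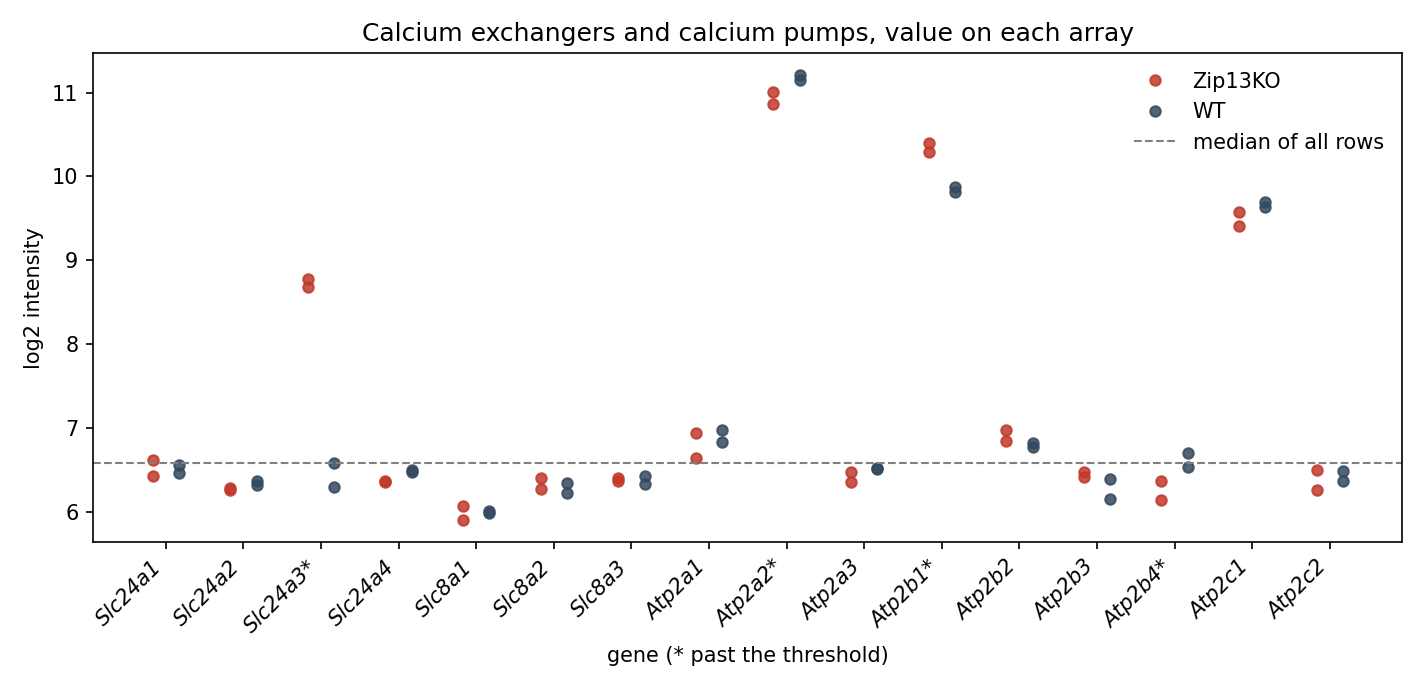
Log2 intensity on each array for the 16 calcium exchangers and calcium pumps, with Zip13KO in red and WT in dark blue; an asterisk marks genes past the threshold and the dashed line is the median of all rows. Slc24a3 is separated by more than 2 log2 units and Atp2b1 by 0.50, while heights of different genes cannot be set against each other on an array.

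Of the sodium pump genes, 1 beta subunit rose. Atp1b1 encodes a beta subunit, which the catalytic subunit needs in order to fold and reach the cell surface. It had 9.11 and 9.14 in Zip13KO, against 8.43 and 8.44 in WT. The replicates were close and the groups well apart, with a difference of 0.69 (SE 0.07, 95% interval 0.54 to 0.84, 1.62-fold, limma adjusted p = 1.46e-06). Atp1b3, another beta subunit, had 10.62 and 10.74 in Zip13KO, against 10.86 on both WT arrays. At -0.18 it did not pass (adjusted p = 0.0768), except without Zip13KO replicate 2 (-0.24, adjusted p = 0.0132; up to 0.382 in the others). Atp1b2 was at 0.11, Atp1b4 at -0.0012 and the testis catalytic subunit Atp1a4 at 0.03, none of them past the threshold. Other catalytic subunits were not analysed here.

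No sodium/proton exchanger passed the test. The 7 measured genes of the Slc9 family differed by -0.08 to 0.16, none with an unadjusted p under 0.05 in limma. Slc9a8, an exchanger of the Golgi and endosomes, had 8.69 and 8.72 in Zip13KO, against 8.71 and 8.51 in WT. The groups overlapped, and the difference was 0.09 (95% interval -0.08 to 0.26). Slc9a7, of the trans-Golgi network, was at 0.01.

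Kcnab1 fell most among the members. It encodes a cytoplasmic beta subunit that binds Shaker-type voltage-gated channels and can speed their inactivation. Its log2 intensity was 7.82 and 7.95 in Zip13KO, against 9.08 and 9.17 in WT. Both Zip13KO arrays lay more than 1 log2 unit below both WT arrays, and the means were 7.88 ± 0.10 in Zip13KO and 9.13 ± 0.06 in WT (SD, n = 2 each). Kcnab1 fell by 1.24 (SE 0.08, 95% interval -1.41 to -1.08), which is 2.37-fold lower (limma adjusted p = 1.84e-09). Slc24a3 and Kcnab1 were the 2 members past the threshold with at least a 2-fold difference, which is 1.71% of members, against 1.17% of all genes. Its relatives Kcnab2 and Kcnab3 were at -0.10 and -0.09, and the 4 Kcnip genes, whose calcium-binding products attach to Kv4 channels, lay between -0.07 and 0.14, none past the threshold.

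Kcnn4 rose. Its product is the calcium-activated channel KCa3.1, which opens through bound calmodulin and is known in fibroblasts, T cells and red cells. It had 7.55 and 7.51 in Zip13KO, against 6.81 and 7.03 in WT. The groups did not overlap, with a difference of 0.61 (SE 0.09, 1.53-fold, limma adjusted p = 5.42e-05). The small-conductance relatives Kcnn1, Kcnn2 and Kcnn3 were at -0.06, -0.05 and -0.07. Kcnma1, the large-conductance calcium-activated channel, was at -0.13 (adjusted p = 0.414), and its 4 beta subunits did not pass. Kcnmb3 had the widest spread of these, with 7.25 and 7.04 in Zip13KO, against 6.74 and 7.22 in WT, and passed only when WT replicate 2 was left out (0.40, adjusted p = 0.00689; up to 0.853 in the others). The sodium-activated Kcnt1 and Kcnt2 and the sperm channel Kcnu1 did not pass either.

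Of 36 voltage-gated pore subunits, 1 rose and none fell in limma, with 3 higher and 1 lower at an unadjusted p under 0.05. The shares of all genes were 17.1% in limma and 25.9% at an unadjusted p under 0.05. Kcnh2, the ERG channel that repolarises heart muscle, had 7.45 and 7.19 in Zip13KO, against 6.87 and 7.02 in WT. The groups did not overlap, though the Zip13KO arrays were spread (SD 0.18, n = 2). The difference between the means was 0.38 (SE 0.09, limma adjusted p = 0.00770), and it missed the threshold with WT replicate 1 left out (0.30, adjusted p = 0.0607), without Zip13KO replicate 1 (0.25, adjusted p = 0.104) or over every row (adjusted p = 0.132). Over its alternatives the adjusted p ran from 7.24e-05 to 0.132. Kcna4, a Shaker-type channel that inactivates fast, was closest to the threshold among the rest, with 8.31 and 8.38 in Zip13KO, against 8.48 and 8.71 in WT. Its difference was -0.25 in its brighter row, the one tested (limma adjusted p = 0.0524), and -0.25 in its dimmer row, and it passed in 6 of the 12 alternatives, with adjusted p from 0.00978 to 0.515. Kcng2, a subunit that forms no channel by itself, was at 0.20 and Kcnq5, an M-type channel subunit, at 0.17, neither past the threshold.

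Tandem-pore channels, which carry background potassium currents, gave 1 gene higher and 1 lower among 13, where 17.1% of all genes passed. Kcnk10, the stretch- and lipid-sensitive channel TREK-2, had 6.69 and 6.70 in Zip13KO, against 7.06 and 7.00 in WT. Both Zip13KO arrays were the lower ones, and Kcnk10 fell by 0.34 (SE 0.08, limma adjusted p = 0.00528). Kcnk10 did not pass over every row (0.0595), the 1 of 12 alternatives in which it missed the threshold, and its lowest adjusted p over the alternatives was 0.00250. Kcnk5, the acid-sensitive channel TASK-2, had 6.62 and 6.54 in Zip13KO, against 6.35 and 6.25 in WT, a rise of 0.28 (SE 0.08, adjusted p = 0.0219). These values lay around and below the median of all rows, and Kcnk5 missed the threshold with WT replicate 2 left out (0.23, adjusted p = 0.163), with Zip13KO replicate 1 left out (0.24, adjusted p = 0.106) or over every row (0.129), and its adjusted p over the alternatives ran from 0.0134 to 0.163. Kcnk2, the related stretch-sensitive TREK-1, was at -0.13. Kcnk13, a channel of the same class, was at 0.11 with overlapping groups, and passed in 1 of 12 alternatives, without Zip13KO replicate 1 (0.29, adjusted p = 0.0452; up to 0.875 in the others).

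None of the 14 inward rectifiers passed. Kcnj11, the pore of the ATP-sensitive channel, had 7.77 and 7.72 in Zip13KO, against 7.64 and 7.67 in WT. The Zip13KO arrays were the higher ones, but the difference was 0.09 (95% interval -0.07 to 0.26). The family ran from Kcnj2 at -0.19, the classical inward rectifier of muscle, to Kcnj8 at 0.10. Kcnj2 passed in 1 of 12 alternatives, without Zip13KO replicate 2 (-0.32, adjusted p = 0.0174; up to 0.839 in the others). In this family 0 genes were higher and 1 lower at an unadjusted p under 0.05 in limma, against 25.9% of all genes in either direction. None of the 5 Kcne genes, single-span partners of voltage-gated channels, passed or had an unadjusted p under 0.05 in limma, and Kcne2 was at -0.0098 with overlapping groups. The 2 long non-coding transcripts that share these symbols are no channels. Kcnq1ot1, an imprinted antisense transcript of the Kcnq1 locus, was at 0.16 and Kcnd3os at -0.09, with overlapping groups for both.

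**Figure D3:**
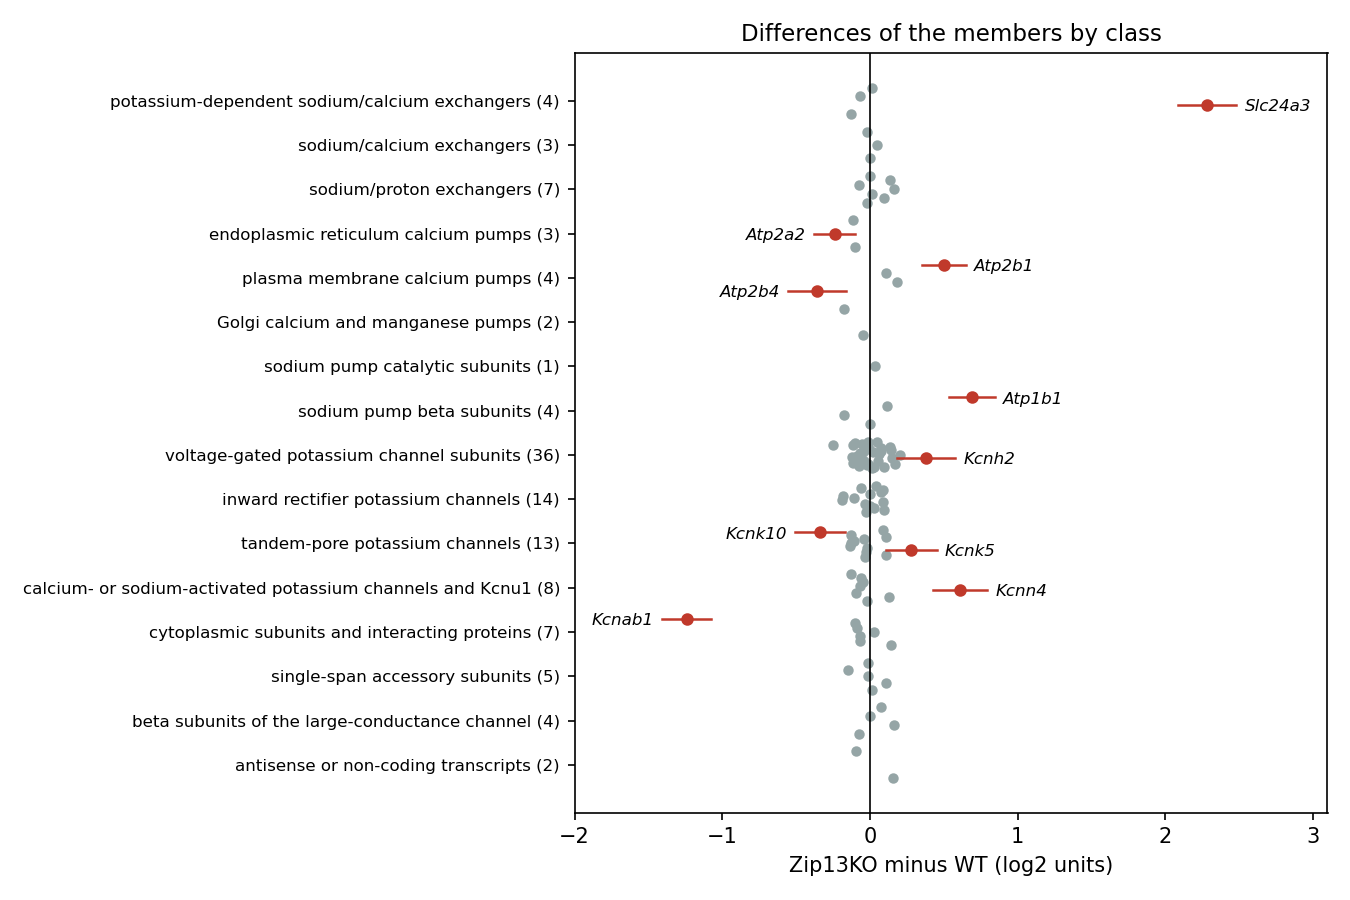
Difference Zip13KO minus WT in log2 units for each of the 117 members, by class with the number of genes in brackets; red points are past the threshold and carry their name and a bar for the 95% interval. In 8 of 16 classes no gene passed, and the members not past the threshold lay between -0.25 and 0.20.

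The 10 members past the threshold lay on 8 chromosomes, Slc24a3 being the 1 on chromosome 2. For each of them the arrays of one group lay wholly on one side of the other group's arrays, as for 51.5% of all genes. Since the same arrays gave the calls, this adds no support to them. Of the 10, 5 differed by less than 0.4 log2 units. All members past the threshold had 1 row in the table, and of the 7 members with several rows none passed. The rows of Kcna4 gave the same direction, whereas those of Kcnj3 were at 0.09 and -0.08 and those of Kcnma1 at -0.13 and 0.03.

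The differences of Slc24a3, Atp1b1, Atp2b1, Kcnn4 and Kcnab1 passed under each of 12 other settings, and those of the other 5 members missed the threshold in 1 to 4 of the settings that tested them, without a change of direction. Atp2b4 and Kcnk5 were tested in 11 of the 12, since the filter on low values removed them.

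**Figure D4:**
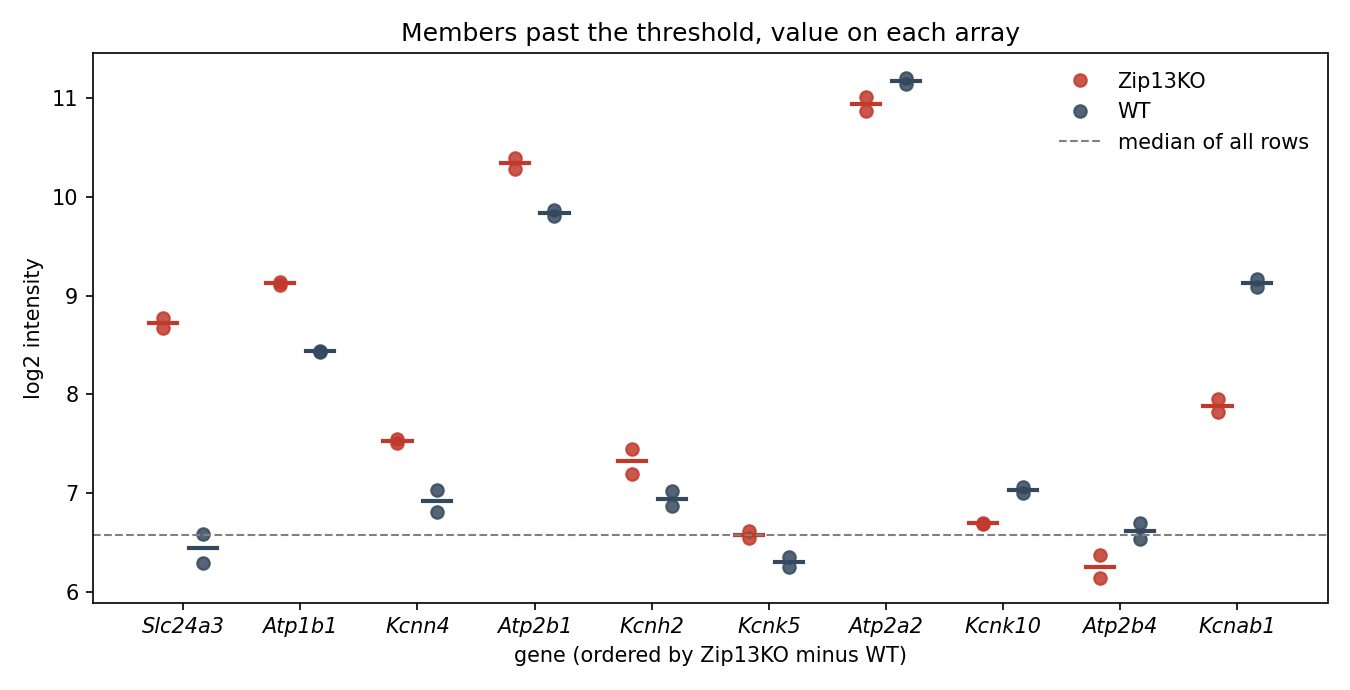
Log2 intensity of the 10 members past the threshold on each array, Zip13KO in red and WT in dark blue, with a bar at each group's mean and the median of all rows as a dashed line. In each gene, called from these same arrays, the 2 groups are apart. The distance is more than 1 log2 unit for Slc24a3 and Kcnab1, while Kcnk5 and Atp2b4 sit at that median.

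**Figure D5:**
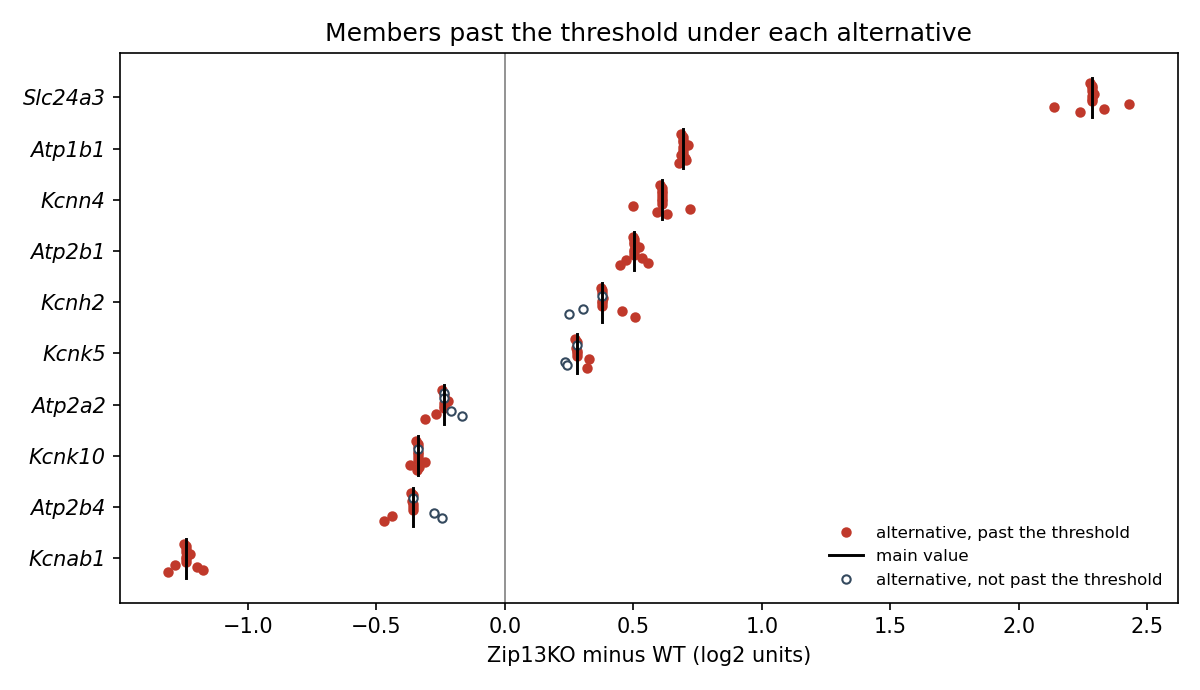
Difference Zip13KO minus WT in log2 units of the 10 members past the threshold, with the main value as a black bar and 1 point for each other setting or array left out, red where past the threshold and open where not. Slc24a3 stayed between 2.14 and 2.43 and Kcnab1 between -1.31 and -1.17.

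The upstream sequences of members and of all other genes were searched for the core of the metal response element, the site of the zinc-sensing factor MTF-1, because the study concerns a zinc transporter. The motif was written as TGCACNC or TGCGCNC, on either strand, in the 250 bases before each annotated start site (RefSeq, GRCm38.p6). It was present for 4 of the 6 members that rose and for 0 of the 3 that fell and had a sequence, while Atp2a2 had no entry. Of all 32851 such windows 21.4% held it, and of 123 windows of 91 members 28.5% did. By gene, with any window counted, 36.3% of those 91 members held it, against 23.8% of all 27025 genes with a window. The latter include the members and genes not tested here. Several genes have more than 1 window, and the motif was chosen with the differences known. The windows of these 4 genes, the one with the match nearest the start site where there were several, are shown 5′ to 3′ on the strand of the gene with the match in capitals.
Slc24a3, chr2:145167525-145167774, plus strand: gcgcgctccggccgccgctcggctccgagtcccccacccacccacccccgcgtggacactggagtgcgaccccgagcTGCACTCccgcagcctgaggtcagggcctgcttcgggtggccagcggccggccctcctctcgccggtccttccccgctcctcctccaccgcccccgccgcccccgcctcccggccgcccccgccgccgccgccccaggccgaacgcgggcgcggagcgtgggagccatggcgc
Atp1b1, chr1:164458356-164458605, minus strand: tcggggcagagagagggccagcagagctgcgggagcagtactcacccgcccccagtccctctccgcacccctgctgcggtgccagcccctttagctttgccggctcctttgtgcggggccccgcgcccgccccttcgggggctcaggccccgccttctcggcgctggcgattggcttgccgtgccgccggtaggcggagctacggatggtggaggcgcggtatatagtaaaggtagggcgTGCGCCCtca
Atp2b1, chr10:98914392-98914641, plus strand: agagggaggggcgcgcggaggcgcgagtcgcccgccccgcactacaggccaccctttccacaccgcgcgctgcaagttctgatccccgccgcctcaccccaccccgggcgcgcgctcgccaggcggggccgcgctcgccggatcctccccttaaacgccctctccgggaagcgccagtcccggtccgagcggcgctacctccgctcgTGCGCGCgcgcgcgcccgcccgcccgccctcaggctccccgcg
Kcnn4, chr7:24370013-24370262, plus strand: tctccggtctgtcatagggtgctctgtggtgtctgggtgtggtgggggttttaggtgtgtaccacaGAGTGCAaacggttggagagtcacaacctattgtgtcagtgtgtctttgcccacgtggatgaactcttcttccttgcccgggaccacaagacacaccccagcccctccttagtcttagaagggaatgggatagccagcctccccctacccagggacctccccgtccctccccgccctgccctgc
The match began 173 bases before the start site in Slc24a3, 10 in Atp1b1, 43 in Atp2b1 and 184 in Kcnn4, where it lies on the opposite strand. A match to 7 letters is a description of the sequence and does not show that the factor binds there.

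Among 27 measured genes of small regulators and partners of these transporters, 1 rose, 2 fell and 24 did not pass, with a median difference of -0.02. Fxyd5, a small membrane protein that modulates the sodium pump, had 8.32 and 8.20 in Zip13KO, against 9.95 and 9.71 in WT, and fell by 1.57 (SE 0.08, limma adjusted p = 1.98e-10). Its groups were far apart, as were those of Nkain2, a membrane protein that interacts with the sodium pump beta subunit and fell by 0.67. Nkain2 averaged 7.21 in WT and 6.55 in Zip13KO, the latter just below the median of all rows (6.57). Slc9a3r2, a scaffold of sodium/proton exchangers, rose by 0.38.

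Of 24 measured genes of store and mitochondrial calcium handling 3 rose and 5 fell, with a median of -0.02. Saraf, which damps store-operated calcium entry, had 8.58 and 8.68 in Zip13KO, against 9.40 and 9.33 in WT, and fell by 0.74 (SE 0.07, limma adjusted p = 8.49e-07). The groups did not overlap. Micu3, a regulator of the mitochondrial uniporter, fell by 0.36 and Calr, the calcium-binding chaperone of the endoplasmic reticulum, fell by 0.29, while the uniporter pore Mcu rose by 0.28.

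Of 17 measured genes of the Slc12 and Slc4 families, listed for chloride and bicarbonate transport, 1 rose and 4 fell, with a median of -0.03. Slc4a8, a sodium-driven bicarbonate transporter, fell by 0.61 and Slc4a11 rose by 0.45, whereas the potassium/chloride cotransporters Slc12a7 and Slc12a4 fell by 0.36 and 0.31. Among 34 TRP, Piezo and voltage-gated calcium channels 3 fell and none rose in limma (4 lower and 1 higher at an unadjusted p under 0.05), with a median of -0.01. They were Cacna1c, the pore of the L-type calcium channel, at -0.50, the stretch-activated Piezo1 at -0.46, and Pkd1, polycystin-1, at -0.36. In these 4 lists together 18.6% of 102 genes were past the threshold, against 17.1% of all genes. The lists differed. Not past it were 16 of 24 store and mitochondrial genes, 24 of 27 regulators and partners, 12 of 17 Slc12 and Slc4 genes and 31 of 34 channels. In that order 20, 13, 11 and 20 genes averaged above the median of all rows, where 26.1% of all genes passed.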

How the data were processed

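Total RNA of 4 fibroblast samples was hybridised to single-colour arrays, per the labels' protocols. Each deposited value is a linear intensity. Per the submitters' processing notes, the software was Affymetrix Expression Console with RMA (versions and annotation not given in the sources used here). This normalization makes the distributions of arrays alike, so a shift of most genes would not be seen.

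Here log2 was taken with no pseudocount. Of 41345 rows, 23521 had 1 symbol in the platform annotation, and the brightest row per symbol gave 22180 genes. Slc24a5, Kcnj13 and Kcnk3 had only rows shared with another symbol and were left out. Members were matched by gene ID to RefSeq (GRCm38.p6) for chromosome and gene type, and by symbol to its upstream sequences (91 of 117). limma 3.58.1 in R 4.3.3 (lmFit, eBayes with trend) was run over all genes without a filter on low values, with 2 residual and 15.1 prior degrees of freedom. Differences are Zip13KO minus WT. The steps were tested on simulated data. Figures used matplotlib 3.10.9.

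The members and lists were chosen with earlier results of these data known. Named were Slc24a3, Slc39a13, members past the threshold (Atp2b4 and Kcnk5 at or below the median of all rows were to be given by their difference alone, and their values were added after being seen), the brightest member of a class without one, and up to 4 genes per companion list. Other members are named for completeness of their class, with their values seen. A comparison of protein sequences had been planned and was not made here. Alternatives were a replicate block, a filter on low values, 2 further scalings, eBayes without trend or robust, the mean of rows, a fit of every row and leaving out each array. The number of arrays limits the precision.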

Additional observations from a re-analysis of the deposited data

How the results depend on the processing

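Slc24a3, Atp1b1, Atp2b1, Kcnn4 and Kcnab1 passed in all 12 alternatives, with adjusted p-values of at most 0.0204. The other members past the threshold passed in 8 to 11 of the alternatives that tested them and kept their direction. Members called higher numbered 6, and 4 to 6 under the alternatives. Members called lower numbered 4. Fitting and adjusting over every row adds rows with no symbol or several, and the dimmer rows of genes with several rows. It left 1 member lower and 669 genes higher and 1137 lower among all genes, against 1552 and 2234. With arrays left out in turn, the members called lower ranged from 2 (without Zip13KO replicate 1) to 8 (without Zip13KO replicate 2). The 8 include Atp1b3, Atp2c1, Kcna4 and Kcnj2. The filter on low values kept 65 members and removed Atp2b4 and Kcnk5.

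With the replicate number as a block, 6 members were higher and 4 lower, as without it. The labels do not say that equal numbers share an animal or a batch, and deviations of arrays with the same number correlated at -0.16 over genes. Crossing the numbers as a block, chosen after seeing the data, gave 7 members higher and 7 lower.

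The difference changed sign in at least 1 of the 12 alternatives for 45 of the 117 members, none of them past the threshold in the reported fit, and for 39 of these 45 only with an array left out. Of the 45, 39 had a difference under 0.1 log2 units in size, and the largest was that of Kcnmb3 (0.17). Among named members, Slc8a3 was at -0.0055 after a further quantile normalization and -0.0052 after centring, and Atp1b4 was at 0.00059 after that quantile normalization. With an array left out, the difference of Slc24a1 ran from -0.0835 to 0.108, Slc8a1 from -0.0999 to 0.0667, Slc8a2 from -0.013 to 0.114, Slc8a3 from -0.0475 to 0.0486, Slc9a8 from -0.0063 to 0.192, Atp1a4 from -0.101 to 0.166 and Atp1b4 from -0.0096 to 0.0072. That of Atp2a1 ran from -0.263 to 0.0337, Atp2c2 from -0.167 to 0.0774, Kcnd1 from -0.0823 to 0.236, Kcnd3os from -0.192 to 0.0055, Kcne2 from -0.0577 to 0.0381, Kcnk13 from -0.0699 to 0.29 and Kcnmb2 from -0.0203 to 0.0154. For Kcnmb3 it ran from -0.0712 to 0.401, Kcnn3 from -0.174 to 0.0354, Kcnq3 from -0.0672 to 0.042, Kcnt2 from -0.0117 to 0.27 and Kcnu1 from -0.0475 to 0.0052. The causes were not tested.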
